A study of Mus musculus with 36 samples.

Results

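Transcripts of 10 genes that neutrophils and their precursors are known for were followed through RNA-seq libraries of mouse CD4+ T cells. The genes were Chil3, Ltf, Ngp, Camp, Lcn2, S100a8, S100a9, Mpo, Elane and Prtn3, which are 10 of the 56748 genes in the count table. The set was selected on the measured levels of Chil3 and Ltf, which were higher in HP1a KO than in WT conventional T cells recovered together with regulatory T cells. The difference between those libraries is therefore given as a description, without a test.

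Neutrophils fill their granules in an order set by their maturation in the bone marrow. Promyelocytes make the azurophil granules and transcribe Mpo (myeloperoxidase), Elane (neutrophil elastase) and Prtn3 (proteinase 3), and they shut these genes down before the later granules form. Myelocytes and metamyelocytes then transcribe the contents of the specific granules: Ltf (lactoferrin, which binds iron), Ngp (neutrophilic granule protein), Camp (cathelicidin, an antimicrobial peptide precursor), Lcn2 (lipocalin 2, which binds bacterial siderophores) and Chil3 (a chitinase-like protein that some macrophages make too). S100a8 and S100a9 encode the subunits of calprotectin, an abundant protein of the neutrophil cytosol that monocytes also hold. CD4+ T cells are not known for these products.

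The cells came from spleens of 2 mutant lines, with KO and WT littermates of the same sex on a mixed 129/Sv and C57BL/6 background. In HP1a KO mice the gene of the heterochromatin protein HP1α, Cbx5, had been deleted in the germ line by a Cre transgene under the CMV promoter, so all cells of these mice lack it. In HP1g KO mice Cbx3, the gene of HP1γ, was floxed and deleted in T cells by Cre under the Cd4 promoter, and their WT littermates carried the floxed allele without Cre. Naive cells were CD4+ T cells isolated from these mice by negative selection on beads. Tconv were such cells recovered from C57BL/6 hosts 3 weeks after lethal irradiation, a graft of C57BL/6 and semi-allogeneic B6D2F1 bone marrow depleted of T and NK cells, and transfer of the naive cells. TconvTreg were the same cells from hosts given expanded WT regulatory T cells (Treg) as well. Cells from grafted hosts were enriched on CD4 beads and sorted as CD4+, H-2Kb+, H-2Kd-, CD45.2+, CD45.1- and Thy1.1- cells with the Vβ6 T cell receptor chain, a gate that the naive cells did not pass. Activation, host and purification therefore cannot be told apart between naive cells and Tconv. With 2 lines, 2 genotypes and 3 conditions there were 12 groups, each of 3 libraries except HP1g KO TconvTreg, of which 2 were used. The third library of that group was set aside for its read quality by the study and here. The analysis rests on 35 libraries, 23 of them from grafted hosts. Nothing in the labels says that the replicates came from separate mice, so the p-values below measure the spread between libraries.

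The sequences just upstream of the genes are shown for 5 members because they belong to the early and the late set of granule genes, which the results below take apart. Each window holds the 250 bases before the start of the canonical transcript in GRCm39, the build of the count table, written 5′ to 3′ on the strand of the gene. Capitals mark matches to the C/EBP motif TTNNGNAA or the PU.1 motif GAGGAAG on either strand. C/EBP factors and PU.1 are known regulators of granule genes in neutrophil precursors. The windows are chr3:106074881-106075130 (minus strand) for Chil3, chr9:110848089-110848338 (plus) for Ltf, chr9:110248565-110248814 (plus) for Ngp, chr11:87684157-87684406 (plus) for Mpo and chr10:79715198-79715447 (plus) for Prtn3.
Chil3: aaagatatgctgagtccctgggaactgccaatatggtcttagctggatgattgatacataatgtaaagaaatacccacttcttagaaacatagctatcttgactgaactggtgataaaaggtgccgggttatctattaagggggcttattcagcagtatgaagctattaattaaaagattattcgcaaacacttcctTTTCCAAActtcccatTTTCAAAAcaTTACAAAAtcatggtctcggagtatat
Ltf: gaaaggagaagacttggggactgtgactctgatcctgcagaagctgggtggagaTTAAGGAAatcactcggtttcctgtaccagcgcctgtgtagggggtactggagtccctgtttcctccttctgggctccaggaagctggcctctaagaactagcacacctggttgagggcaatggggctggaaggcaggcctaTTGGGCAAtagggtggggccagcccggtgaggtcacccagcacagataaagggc
Ngp: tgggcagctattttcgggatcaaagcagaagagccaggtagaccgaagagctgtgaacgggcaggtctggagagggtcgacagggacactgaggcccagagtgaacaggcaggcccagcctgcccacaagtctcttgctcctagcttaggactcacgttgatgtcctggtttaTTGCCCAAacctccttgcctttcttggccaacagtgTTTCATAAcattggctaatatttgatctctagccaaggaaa
Mpo: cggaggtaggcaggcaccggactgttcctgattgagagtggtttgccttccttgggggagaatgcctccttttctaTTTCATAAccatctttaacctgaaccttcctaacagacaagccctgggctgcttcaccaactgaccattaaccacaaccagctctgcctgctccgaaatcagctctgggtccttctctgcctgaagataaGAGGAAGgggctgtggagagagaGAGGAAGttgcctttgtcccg
Prtn3: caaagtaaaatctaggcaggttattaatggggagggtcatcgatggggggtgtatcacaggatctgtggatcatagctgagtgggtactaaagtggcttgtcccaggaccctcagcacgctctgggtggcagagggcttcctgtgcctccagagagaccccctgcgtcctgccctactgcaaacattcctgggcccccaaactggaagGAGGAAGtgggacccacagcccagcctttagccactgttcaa

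A C/EBP match was present in the window of each of the 7 later members and of 1 of the 3 azurophil members (Mpo), against 36.9% of 21757 promoters of the same length. A PU.1 match was present in each of the 3 azurophil members and in 1 of the 7 later ones (S100a8), against 10.3% of promoters. No match of one motif overlapped a match of the other. A match is a string of letters and not a measured binding site.

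Several members are neighbours in the genome. S100a8 and S100a9 lie 21802 bases apart on chromosome 3 with 0 protein-coding genes between them, and Prtn3 and Elane lie 3072 bases apart on chromosome 10. Camp, Ngp and Ltf follow each other on chromosome 9, with 570129 and 596252 bases between them and other genes in the gaps. Mpo overlaps the non-coding gene Gm11505 and Prtn3 overlaps Plppr3, both on the other strand, and whether reads were counted by strand is not given in the sources used here, so reads of these pairs cannot be told apart. Chil4, a close copy of Chil3, had at most 1 count in any library.

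The 35 libraries held 37029477 to 63042165 estimated counts, and 20158 to 23340 genes were detected in each. Levels are in CPM, the counts of a gene scaled to the library total and to edgeR's TMM factor. A count of 3, the floor used here, corresponded to 0.0446 to 0.0816 CPM, and this floor covers counting error only. The T cell label was met by the markers: the 10 genes of a T cell list, Cd3d, Cd3e, Cd4 and Lck among them, summed to between 6099 and 10250 CPM in each library. The targeted genes followed the labels: Cbx5 was at 9.25 to 19.7 CPM in HP1a KO and 18.6 to 61.9 CPM in WT libraries, Cbx3 at 59.4 to 80.8 CPM in HP1g KO and 79.5 to 200.1 CPM in WT libraries, and within each of the 3 conditions all KO libraries lay below all WT libraries.

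Naive cells held almost none of these transcripts. The 10 members together came to between 0.0366 and 3.17 CPM in the 12 naive libraries, with a median of 0.27 CPM. Elane had 0 counts in all 12 naive libraries, which allows up to 3 counts in each, and Prtn3 had 1 count in 1 of them. The highest naive library was replicate 3 of HP1a KO, with 170 counts over the members, of which 59 were Ngp, 37 S100a8, 24 Ltf and 22 Chil3. It was followed by replicate 2 of HP1g KO at 1.77 CPM, with 19 counts of Ngp and 23 of S100a8. The WT naive libraries of both lines stayed at or below 0.431 CPM.

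Libraries from grafted hosts ranged from 0.107 to 642 CPM. The members summed to 0.272, 0.211 and 0.107 CPM in replicates 1, 2 and 3 of HP1a WT Tconv, and to 67.7, 1.71 and 71.6 CPM in HP1a KO Tconv. They summed to 2.39, 1.59 and 38.04 CPM in HP1a WT TconvTreg, and to 425, 270.3 and 472 CPM in HP1a KO TconvTreg. HP1a WT Tconv thus stayed at the level of naive cells, and HP1a KO TconvTreg was the group whose 3 libraries were all above 270 CPM. In the HP1g line the sums were 642, 12.2 and 5.44 CPM in WT Tconv, 153, 3.6 and 62.9 CPM in KO Tconv, 177, 65.8 and 129 CPM in WT TconvTreg, and 355 and 45.3 CPM in the 2 libraries of KO TconvTreg. One WT library, replicate 1 of HP1g WT Tconv, therefore held the highest sum of all 35 libraries, while the other two of its group lay among the lowest of the HP1g grafts.

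**Figure D1:**
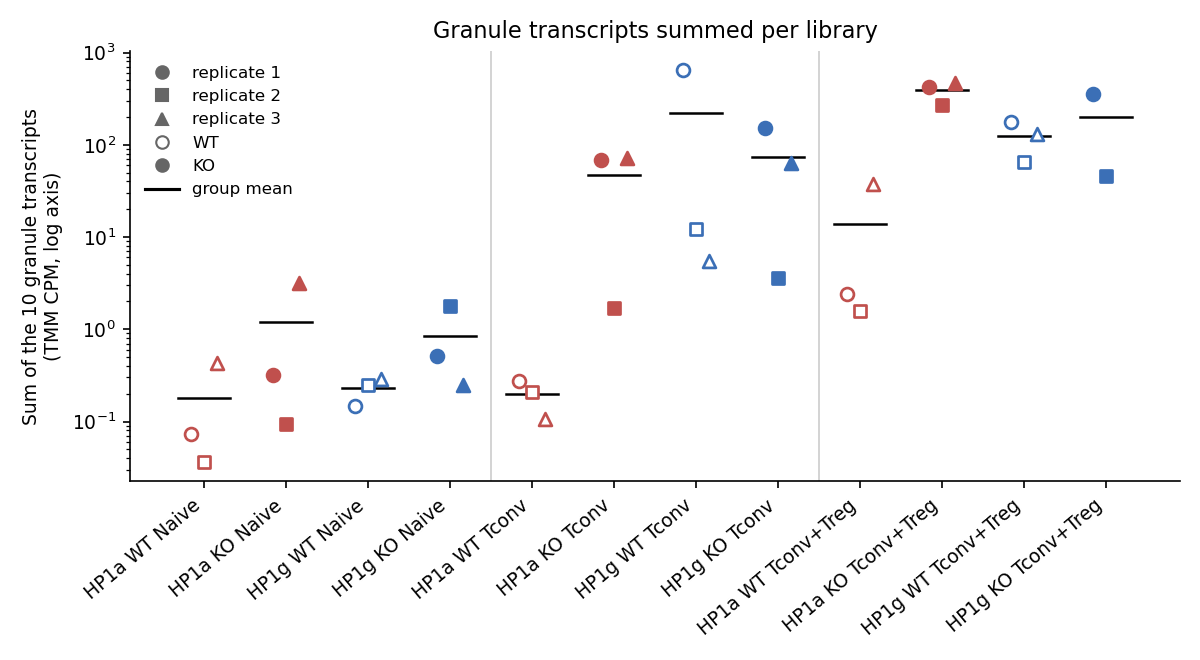
Summed level of the 10 granule transcripts in each of the 35 libraries (vertical log axis, TMM CPM) by group, with open symbols for WT, filled symbols for KO, a shape per replicate number and a black line at the group mean. The naive libraries and HP1a WT Tconv lie near or below 3.17 CPM, while replicates of 1 grafted group differ by up to 118-fold (HP1g WT Tconv).

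The order of the group means ran from HP1a KO TconvTreg (389 ± 106 CPM, SD, n = 3) over HP1g WT Tconv (219.7 ± 365, n = 3), HP1g KO TconvTreg (200.4 ± 219, n = 2), HP1g WT TconvTreg (124 ± 55.6, n = 3), HP1g KO Tconv (73.1 ± 75.1, n = 3), HP1a KO Tconv (47.0 ± 39.3, n = 3) and HP1a WT TconvTreg (14.0 ± 20.8, n = 3) to the 4 naive groups, from 1.19 ± 1.71 CPM in HP1a KO to 0.18 ± 0.218 in HP1a WT (n = 3 each), with HP1a WT Tconv (0.197 ± 0.0832, n = 3) among them. Each group in this order overlapped the next, so no step between neighbours exceeded the spread of the libraries. The highest library of a group exceeded the lowest by 118-fold in HP1g WT Tconv, 42.5-fold in HP1g KO Tconv and 41.9-fold in HP1a KO Tconv, against 1.75-fold in HP1a KO TconvTreg and 2.69-fold in HP1g WT TconvTreg. In a bulk library, more cells with these transcripts and more transcript per cell cannot be told apart.

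S100a8 and S100a9, the calprotectin subunits, were the members most often found. S100a8 had counts in all 23 grafted libraries and S100a9 in all but 1, and their medians there were 13.5 and 9.53 CPM. S100a8 was at 111, 62.9 and 123 CPM in HP1a KO TconvTreg and at 1.25, 0.218 and 17.6 CPM in WT TconvTreg. Replicate 2 of HP1a KO Tconv had 41 counts of S100a8 and 32 of S100a9 beside 1 of Lcn2 and 0 of the other 7 members. Per kilobase of canonical transcript, S100a8 was the most abundant member, with a median level of 27.4 CPM per kilobase in the grafted libraries, followed by S100a9 (16.7) and Ngp (12.03).

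Among the specific granule members Ngp was the most abundant and Ltf came next in CPM. Ngp was at 180 CPM (8931 counts) in replicate 1 of HP1g WT Tconv, and at 3.07 and 0.374 CPM in replicates 2 and 3 of the same group. Ltf was at 100.6, 2.15 and 0.166 CPM in these 3 libraries, and Chil3 at 52.4, 0.632 and 0 CPM. Camp and Lcn2 followed the same order at lower levels, with 27.9 and 31.1 CPM in replicate 1. All 10 members were thus highest in replicate 1 of this group.

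The later members kept roughly fixed proportions to each other. Over the 15 libraries with at least 100 counts of Ngp, the count of Ltf was a median of 0.56 times that of Ngp, with quartiles of 0.51 and 0.631, and the counts of Camp and Lcn2 were medians of 0.171 and 0.165 times that of Ngp, with ranges of 0.0917 to 0.252 and 0.104 to 0.254. S100a8 and S100a9 were at medians of 0.913 and 0.758 times the Ngp count. Chil3 varied most among the later members, from 0.0153 to 0.331 times Ngp. The lowest ratios of Chil3, Ltf, Camp and Lcn2 and the highest of S100a8 (2.07) all came from replicate 3 of HP1a WT TconvTreg, which had 327 counts of Ngp, 678 of S100a8, 50 of Ltf and 5 of Chil3. The other 2 libraries of that group held 20 and 51 counts of Ltf beside 0 and 12 of Ngp, so the mix of members in HP1a WT TconvTreg departed from that of the other groups in each of its libraries. These counts were too low for ratios in 2 of the 3 libraries, and the departure was not tested.

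The azurophil transcripts were found in fewer libraries than the later ones. Each of the 3 had at least 10 counts in 6 of the 23 grafted libraries, against 14 to 20 for the later members. Mpo, Elane and Prtn3 together reached 100 counts in 6 of the 35 libraries: replicate 3 of HP1a KO Tconv, replicate 2 of HP1a KO TconvTreg, replicate 1 of HP1g WT Tconv, replicates 1 and 3 of HP1g KO Tconv, and replicate 1 of HP1g WT TconvTreg. In replicate 3 of HP1a KO Tconv there were 512 counts of Mpo, 92 of Elane and 71 of Prtn3 beside 1045 of Ngp, an Mpo to Ngp ratio of 0.49. Replicate 1 of the same group held 736 counts of Ngp with 0 of Mpo, 1 of Elane and 0 of Prtn3. These libraries had nearly the same sum of members (67.7 and 71.6 CPM) and differed in whether the azurophil transcripts were among them.

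Replicate 3 of HP1g KO Tconv resembled it, with 296 counts of Mpo and a ratio of 0.445 to Ngp, while replicate 1 of that group had 49 counts of Mpo beside 2321 of Ngp, a ratio of 0.0211. Conversely, 7 libraries had at least 1000 counts of the later members and fewer than 10 of the azurophil ones, and 6 of these 7 were TconvTreg libraries. In replicate 3 of HP1a KO TconvTreg, 5674 counts of Ngp came with 0 of Mpo and Elane and 3 of Prtn3. In replicate 1 of HP1g KO TconvTreg, 4906 counts of Ngp came with 0 of Mpo and Elane and 2 of Prtn3. Libraries at 100 azurophil counts numbered 4 of 12 in Tconv and 2 of 11 in TconvTreg. At least 100 counts of the later members were found in 8 Tconv and 10 TconvTreg libraries, and 4 and 7 of these had fewer than 10 azurophil counts. A link of the azurophil counts to Treg was not tested.

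**Figure D2:**
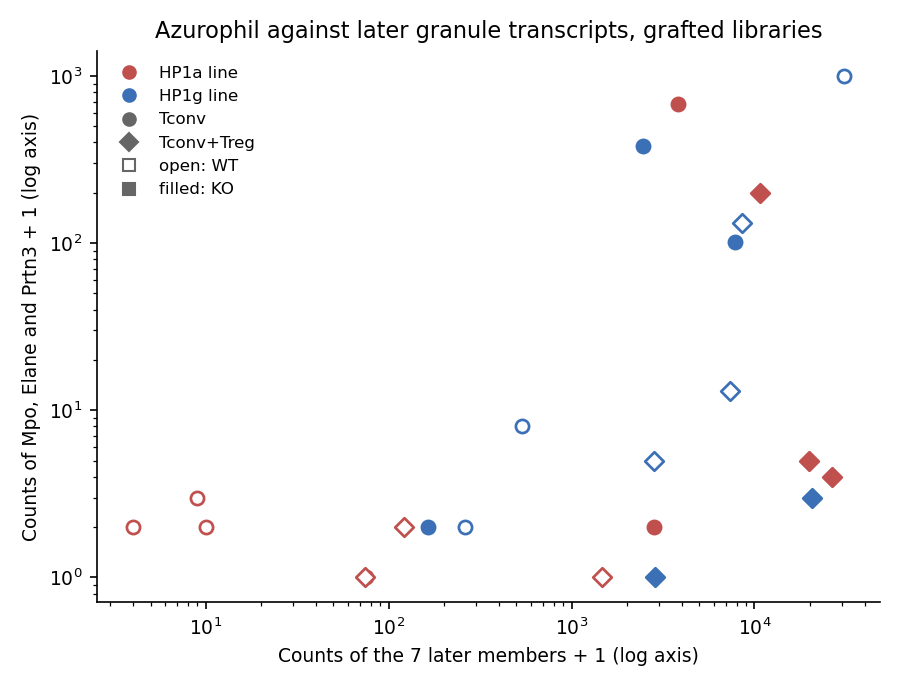
Counts of the 3 azurophil members (vertical log axis, plus 1) against counts of the 7 later members (horizontal log axis, plus 1) in the 23 grafted libraries, with circles for Tconv, diamonds for TconvTreg, open symbols for WT and filled for KO. Of the libraries with 1000 or more counts of the later members, 6 had 100 or more azurophil counts, 7 had fewer than 10, and 1 (replicate 3 of HP1g WT TconvTreg) had 12.

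**Figure D3:**
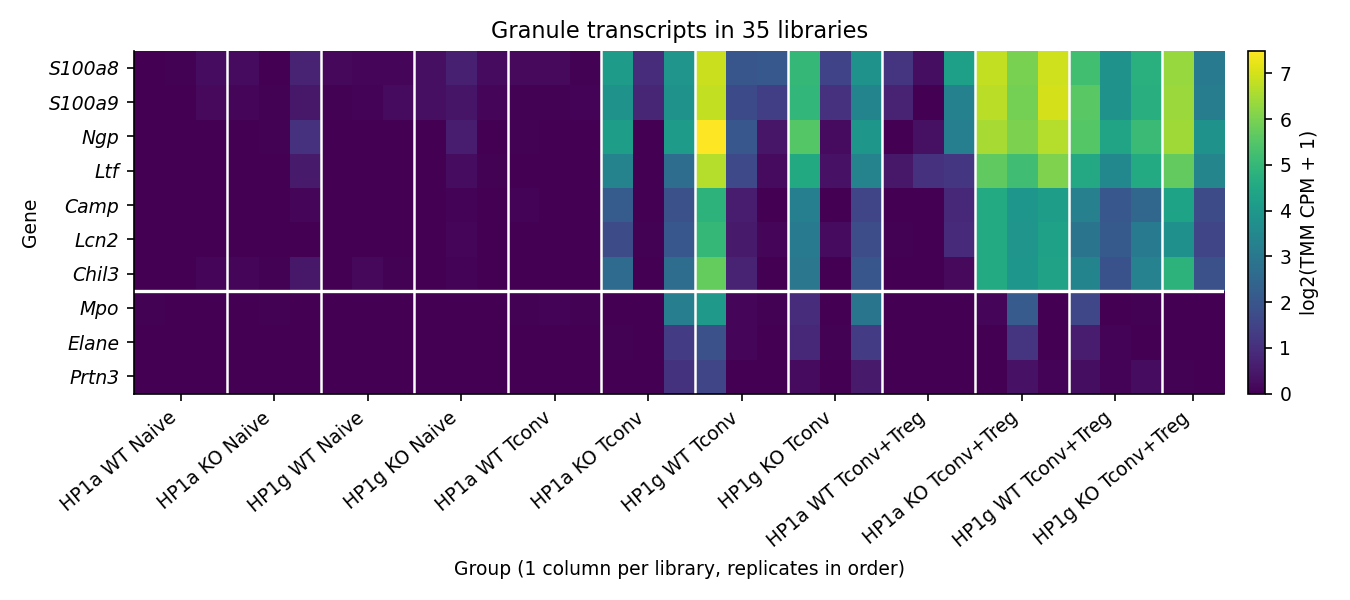
Level of each member (rows) in each of the 35 libraries (columns, by group and replicate), as log2 of TMM CPM plus 1. The 7 later members above the white line rise and fall together from library to library, and the 3 azurophil members below it are visible in a subset of those libraries.

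In HP1a cells the KO and WT libraries were compared in each condition. In TconvTreg, the comparison on which the genes were chosen, Chil3 was at 22.99, 14.4 and 19.1 CPM in the KO and at 0, 0 and 0.13 CPM in the WT libraries. Ltf was at 49.6, 35.9 and 64.5 CPM in the KO and at 0.391, 1.11 and 1.3 CPM in the WT libraries. No KO library overlapped a WT library for either gene. The log2 fold changes were 8.83 for Chil3, 6.17 for Camp, 5.95 for Lcn2, 5.73 for Ltf, 4.92 for S100a9, 4.86 for Ngp and 3.93 for S100a8. All KO libraries were above all WT libraries for these 7 later members, as for 11.7% of the 16256 genes tested. Since the choice of genes used this contrast, nothing is read from that count. Mpo, Elane and Prtn3 did not pass the filter on low counts, and their groups overlapped, with Mpo at 0.0861, 3.43 and 0 CPM in the KO libraries.

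Some other marker lists moved with the same contrast. The erythroid list (globins, Alas2, Klf1) summed to 112 to 698 CPM in the KO and 2.7 to 49.96 CPM in the WT TconvTreg libraries of the HP1a line, and the mature neutrophil list to 21.7 to 139 against 7.71 to 13.02 CPM. The specific granule list overlapped, at 76.8 to 245 CPM in the KO and 66.3 to 232 CPM in the WT libraries. Its Pglyrp1 was at 37.4 to 86 against 65.5 to 228 CPM, while the median log2 fold change of its 7 genes with a value was 4.68. The macrophage and monocyte list came to 194 to 407 CPM in the KO and 209 to 237 CPM in the WT libraries, of which Ctss alone held 168 to 186 and 182 to 195 CPM. The other 9 genes of that list summed to 25.1 to 238 CPM (median 193) in the KO and at most 52.7 CPM (median 26.8) in the WT libraries, with overlap, and Csf1r was at 8.2 to 56.5 against 3.83 to 6.49 CPM, without overlap. The median log2 fold change of the 10 genes was 2.42, and 0 were called. The T cell list summed to 7824 to 8481 CPM in the KO and 8936 to 9405 CPM in the WT libraries. The part of other cells in the difference of the members was not tested.

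In Tconv without Treg, libraries that played no part in the choice, the KO mean of every member was above the WT mean, through replicates 1 and 3 for the later members and almost wholly through replicate 3 for the azurophil ones. Ngp was at 17.6, 0 and 16.6 CPM in the KO and at 0.0272, 0 and 0 CPM in the WT libraries. Replicate 2 of the KO group was low for all members and overlapped the WT libraries for all but S100a8, S100a9 and Lcn2. Against WT libraries that had 0 counts, the KO mean of Chil3 was at least 47.3-fold higher and that of Ltf at least 64.9-fold higher, counted from the floor of 3 counts in each library. The KO and WT libraries did not overlap for 3 members, S100a8, S100a9 and Lcn2, the last through 1 count in KO replicate 2 against 0 in the WT libraries. Over the genes that passed the filter on low counts, as S100a8 and S100a9 but not Lcn2 did, this share was 7.11%.

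Only S100a8 and S100a9 passed the filter on low counts in that comparison. Their log2 fold changes were 6.6 ± 1.35 and 8.0 ± 1.53 (SE, n = 3 per group), and their adjusted p were 0.489 and 0.456 by the quasi-likelihood test of edgeR, adjusted after Benjamini and Hochberg. Neither was called, which asks for an adjusted p under 0.05 and an absolute log2 fold change above 1. Called genes made up 0.103% of the 15521 tested. At an unadjusted p under 0.05 there were 2 members, as were 8.53% of all genes tested, and DESeq2 called 2 members and 0.724% of its 28581 genes. S100a8 and S100a9 passed edgeR's filter through their level in the KO libraries, so the number of members at that p or called is no support. Without replicate 2 of HP1a KO Tconv, the lowest KO library, 7 members were called by edgeR (Chil3 10.9, adjusted p 0.00855; Ngp 10.6, adjusted p 0.000392) and 0.137% of 16003 genes. Since these members passed the filter through the 2 KO libraries that remained, that count supports nothing. The macrophage and monocyte list was at 126 to 410 CPM in the KO and 91.0 to 116 CPM in the WT libraries, and the erythroid list at 26.3 to 767 against 1.99 to 3.36 CPM. The mature neutrophil list lay lower in the KO with overlap, at 45.7 to 90.1 against 76.65 to 198 CPM. Its Mmp9 was at 40.7 to 76.1 against 74.3 to 196 CPM, while the median log2 fold change of its 4 genes with a value was 2.99. The part of these lists in the result was not tested. In naive HP1a cells 0 members passed the filter, and called genes made up 0.0% of 15549.

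In the HP1g line KO and WT libraries overlapped for nearly all members in both grafted conditions. In Tconv, Ltf was at 22.4, 0.285 and 9.22 CPM in the KO and at 100.6, 2.15 and 0.166 CPM in the WT libraries. The 9 members with a value had log2 fold changes from −2.39 ± 2.36 (Chil3) to −0.21 ± 1.82 (Elane), and edgeR's adjusted p ran from 0.858 to 0.99. None was called by edgeR or DESeq2, 0 were at an unadjusted p under 0.05, and called genes were 0.0437% of the 16015 tested. The SE, up to 2.36 on the log2 scale, left differences of several-fold in either direction undetectable. Without replicate 1 of HP1g WT Tconv the sign of all 9 turned, with Chil3 at 3.39 and Ngp at 3.53, and again 0 were called.

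In HP1g TconvTreg, with 2 KO libraries, Ngp was at 84.3 and 13 CPM in the KO and at 44.7, 19.8 and 33.6 CPM in the WT libraries, so that the KO libraries lay on either side of the WT ones. The 7 later members had log2 fold changes of 0.35 ± 0.755 (Lcn2) to 1.13 ± 0.959 (Chil3), and Prtn3, at 2 counts or fewer in the KO libraries and 2 to 10 in the WT ones, had −2.93 ± 1.46. No member was called by edgeR (adjusted p 0.487 to 0.914) or DESeq2, 0 were at an unadjusted p under 0.05, and called genes were 0.0% of the 17177 tested. Without replicate 1 of HP1g KO TconvTreg the 7 later members had negative values, such as −1.40 for Chil3. In naive HP1g cells 0 members passed the filter, and called genes were 0.00669% of 14939. S100a8 was at 0.232, 0.574 and 0.158 CPM in the naive KO and at 0.124, 0.0836 and 0.105 CPM in the naive WT libraries, without overlap. Over the genes that passed the filter, as S100a8 did not, this share was 10.1%.

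The effect of co-transferred Treg was described for the HP1a line, whose TconvTreg libraries had served to choose the genes, and tested for the HP1g line. In HP1a KO cells the 7 later members were higher with Treg, with log2 fold changes from 2.41 (Chil3) to 3.41 (S100a9), and all TconvTreg libraries were above all Tconv libraries for these 7, as for 10.2% of the 16133 genes tested. S100a9 was at 104.0, 60.1 and 128 CPM with Treg and at 13.3, 0.738 and 13.5 CPM without. In HP1a WT cells the members summed to 1.59 to 38.04 CPM with Treg and to 0.107 to 0.272 CPM without. The 38.04 CPM came from replicate 3, where S100a8 was at 17.6 CPM. Ltf was at 0.391, 1.11 and 1.3 CPM with Treg and 0 in the 3 libraries without. The mean of Ltf with Treg was at least 12.4-fold higher, counted from the floor of 3 counts per library. Ltf and S100a8 did not overlap between these groups. Of the genes that passed the filter, as Ltf but not S100a8 did, 15.7% were higher with Treg in this way. The macrophage and monocyte list was at 209 to 237 CPM with Treg and 91.0 to 116 CPM without in these WT cells, and its part in the difference was not tested.

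In HP1g WT cells the 7 members with a value had log2 fold changes from −1.32 ± 2.12 (Chil3) to −0.43 ± 1.7 (S100a9) with Treg against without, and adjusted p of 0.944 or more by edgeR. None was called by either tool, 0 were at an unadjusted p under 0.05, and called genes were 0.0126% of 15903. The sign rested on replicate 1 of HP1g WT Tconv and on the fit: without that library Chil3 was at 4.49 and Ngp at 4.26, and with a replicate block at 1.62 and 2.10, still with 0 called. In HP1g KO cells the 7 later members had values from 1.13 ± 1.35 (Lcn2) to 2.22 ± 1.68 (Chil3), with adjusted p of 0.818 or more. Without replicate 1 of HP1g KO TconvTreg all 7 were negative, with Chil3 at −0.30 and S100a8 at −0.96. Mpo was at 0.942, 0 and 6.57 CPM in Tconv and 0 in both TconvTreg libraries, and Elane at 0.826, 0.0219 and 1.47 CPM against 0. These 2 were at an unadjusted p under 0.05 (0.0463 and 0.0224) but not called by edgeR (adjusted p 0.653 and 0.57), as were 7.62% of all genes tested, while DESeq2 called Elane and 0.93% of its 29043 genes. Mpo and Elane passed edgeR's filter through their level in the Tconv libraries alone, so their p-values and the call of Elane are no support for an effect of Treg. Called genes were 0.0% of 16991 by edgeR.

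The interaction of genotype and Treg in the HP1g line, which asks whether Treg changed KO and WT cells differently, gave a value for all 10 members. The estimates of the later members ran from 1.98 ± 2.48 (Lcn2) to 3.51 ± 2.98 (Chil3), each with an adjusted p of 1.0 by edgeR. 0 members were called by edgeR or DESeq2, 0 were at an unadjusted p under 0.05, and called genes were 0.0% of 17833. Without replicate 1 of HP1g WT Tconv the estimate of Chil3 was −2.30 and that of Ngp −2.99.

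**Figure D4:**
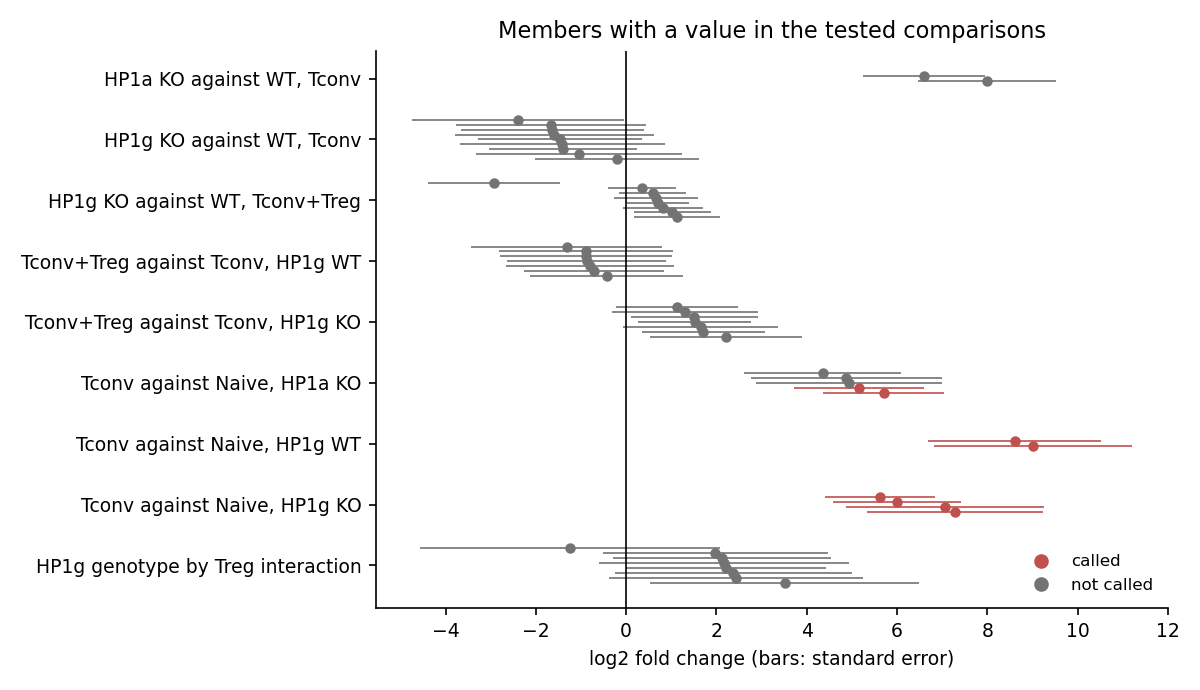
Log2 fold changes (horizontal axis, bars show the standard error) of the members with a value in each tested comparison (rows), red where called and grey where not. Members at 0 in a whole group are not drawn. The values of HP1g KO against WT and of TconvTreg against Tconv lie on both sides of 0 between −2.93 and 2.22, while those of Tconv against naive cells lie between 4.35 and 9.01.

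Tconv were then compared with naive cells of the same line and genotype, with the same test. In HP1a WT cells 0 members passed the filter, and the sum of the members was 0.107 to 0.272 CPM in Tconv and 0.0366 to 0.431 CPM in naive libraries. Called genes made up 23.1% of 16027 there, among them 5 of the 6 erythroid genes, which were lower in Tconv. In HP1a KO cells S100a8 (5.16 ± 1.44, adjusted p 0.0303) and S100a9 (5.7 ± 1.35, adjusted p 0.0158) were called higher by edgeR, and Chil3, Ltf and Ngp had values of 4.35 to 4.94 with adjusted p of 0.0928 to 0.117. Genes called higher were 12.4% of the 15773 tested. Without the filter on low counts 0 members were called, against 7.38% of 29492 genes. All Tconv libraries were above all naive ones for 3 members, S100a8, S100a9 and Lcn2. Over the genes that passed the filter, as S100a8 and S100a9 but not Lcn2 did, this share was 28.7%.

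In HP1g WT cells S100a8 (8.61 ± 1.92, adjusted p 0.0115), S100a9 (9.01 ± 2.19, adjusted p 0.0168) and Ngp (adjusted p 0.0497) were called higher by edgeR, where 15.0% of 15812 genes were. Ngp had 0 counts in the 3 naive libraries, and its Tconv mean of 61.0 CPM was at least 848-fold higher from the floor. That mean rested on replicate 1, at 180 CPM, against 3.07 and 0.374 CPM in replicates 2 and 3. In HP1g KO cells Ltf (7.29 ± 1.95, adjusted p 0.0294), Ngp (7.06 ± 2.2, adjusted p 0.0484), S100a8 (5.63 ± 1.22, adjusted p 0.0143) and S100a9 (6.0 ± 1.41, adjusted p 0.0191) were called higher, where 15.7% of 15912 genes were. These calls moved with the fit. The HP1g WT count of 3 went to 0 without the filter, where 9.35% of all genes were called higher, and to 0 with DESeq2, which gave no adjusted p for the members. The HP1g KO count of 4 went to 1 without the filter (9.82% of genes) and to 0 with the replicate block (14.7% of genes). Groups did not overlap for 6 members in HP1g WT and 5 in HP1g KO cells. Over the genes that passed the filter, these shares were 27.4% and 27.5%. Ltf, Lcn2 and Mpo in HP1g WT and Lcn2 and Elane in HP1g KO had not passed it, so the shares cover an unlike set. The members that passed the filter did so through their level in Tconv, so the number called among them is no support for a common direction. Calls also moved with single libraries: leaving 1 out gave 0 to 7 members called in HP1a KO, 0 to 7 in HP1g WT and 0 to 9 in HP1g KO cells, the highest without replicate 2, 3 and 2 of the Tconv group respectively, and 0 without replicate 1 or 2 of HP1a KO naive, any 1 of the HP1g WT naive libraries or replicate 1 of HP1g KO naive. Over the same fits, genes called higher were 11.0% to 13.8%, 13.4% to 14.5% and 13.8% to 17.3% of those tested.

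The other genes of the neutrophil lists ranged from those that followed the members to those that did not. Likeness was measured as Spearman's rho with the mean standardised log2 CPM of the members over the 23 grafted libraries, which share line, host and depth effects, and is given without a test. Among the members themselves rho ran from 0.852 to 0.906 for the 7 later ones, 0.859 for Prtn3, 0.707 for Elane and 0.545 for Mpo. Each member is itself part of that mean, so its rho is not a like measure to that of genes outside the set. Of specific granule genes, Hp (haptoglobin) was at 0.89, Cd177 (a neutrophil surface antigen) at 0.868, Fcnb (ficolin B) at 0.866, Mmp8 (neutrophil collagenase) at 0.816 and Lyz2 (lysozyme) at 0.806. Chil1 of the same list was at 0.761. Of mature neutrophil genes, Wfdc21 was at 0.881, Csf3r (the receptor of G-CSF) at 0.824, Retnlg at 0.77 and Cxcr2 (a chemokine receptor) at 0.754. Itgam, Il1b and Fpr1 were lower, at 0.58, 0.569 and 0.527. List genes outside the members without a mean of at least 1 CPM in any group, such as Ctsg and Ly6g, were given no rho. Lyz2 was at 27.8 to 154 CPM in HP1a KO TconvTreg and at 1.12 to 1.81 CPM in HP1a WT Tconv. Ly6g, the surface antigen that defines mouse neutrophils, stayed at or below 1.17 CPM (60 counts) in every library and had 0 counts in 6 of the 23 grafted ones.

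Mmp9 (gelatinase B), Pglyrp1 (a peptidoglycan recognition protein) and Prss57 (an azurophil serine protease) did not follow the members, with rho of −0.085, −0.583 and −0.203. Mmp9 was at 74.3 to 196 CPM in HP1a WT Tconv, where the members were at naive levels, and at 2.54 to 4.05 CPM in HP1a WT TconvTreg. It was called higher in Tconv than in naive cells in both lines and genotypes (log2 fold changes 8.63 to 11.9), and so was Pglyrp1 (2.87 to 3.52). Prss57 was at 0 in all 12 naive libraries and at 0.365 to 1.19 CPM in the 12 Tconv libraries, with adjusted p between 0.00024 and 0.00142 by edgeR. In the same HP1a WT cells Prss57 was at 1.03 to 1.1 CPM without Treg and at 0 to 0.0653 CPM with Treg, the reverse of Ltf.

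Counted over whole lists, calls of the other neutrophil genes were set beside those of all genes. Of the 3 azurophil, 10 specific granule and 11 mature neutrophil genes, 0 were called by edgeR in naive cells and Tconv of the HP1a line and 0 in the 3 conditions of the HP1g line. Called genes were only 0.0% to 0.103% of all genes tested in these comparisons. Many list genes did not pass the filter: in HP1a Tconv 1 azurophil, 2 specific granule and 4 mature neutrophil genes did. Nothing is read from the 0 calls. In Tconv against naive cells, 1 of 10 specific granule genes was called higher and 1 lower in HP1a WT (Pglyrp1 and Cd177), 1 and 0 in HP1a KO, 2 and 0 in HP1g WT, and 4 and 0 in HP1g KO. Of the 11 mature neutrophil genes, 1 was called higher and 1 lower in HP1a WT (Mmp9 and Itgam), 2 and 0 in HP1a KO, 2 and 0 in HP1g WT, and 5 and 0 in HP1g KO. Genes of other myeloid cells were called there too: 8 of 10 macrophage and monocyte genes were higher in HP1a KO, 7 higher and 1 lower in HP1g WT, 8 higher in HP1g KO and 1 higher in HP1a WT Tconv than in naive cells. Of the 6 erythroid genes, 5 were called higher in HP1g WT, 4 in HP1g KO and 0 in HP1a KO, and 5 were called lower in HP1a WT. Over all genes tested, those called higher were 12.4% in HP1a KO, 15.0% in HP1g WT, 15.7% in HP1g KO and 2067 of 16027 in HP1a WT.

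The 10 genes outside the members with the pattern most like theirs over all 35 libraries, among 14511 with a mean of at least 1 CPM in a group, were Rab3il1 (rho 0.9), Hp, Wfdc21, Cd33, Chil1, Fcnb, Spire1, Apol11b, Lrg1 and Lyz2 (0.816). Of these, 5 were in the neutrophil lists. Rab3il1, which encodes an exchange factor of Rab GTPases, was at or below 0.125 CPM in naive libraries and at 0 to 16.8 CPM in grafted ones, with a median of 1.39 CPM. Apol11b reached 190.5 CPM and was at 0 in at least 1 grafted library, and Cd33, a lectin of myeloid cells, reached 5.39 CPM.

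Markers of other blood cells were set beside the members in the same libraries. The erythroid list ran with the members: its sum had a rho of 0.839 with theirs over the 23 grafted libraries, and in 7 of the 8 grafted groups the library with the highest sum of members also had the highest erythroid sum. This was clearest in the HP1g line, where replicate 1 had the highest sum of members in each of the 4 grafted groups. Those 4 libraries held 3300 to 6040 CPM of erythroid and 153 to 642 CPM of member transcripts, and the other 7 HP1g grafted libraries held 75.3 to 310.0 and 3.6 to 129 CPM. No batch or date is given in the labels for the shared replicate number, and the part of erythroid cells in the levels of the members was not tested.

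The macrophage and monocyte list gave a weaker relation, with a rho of 0.329 for the sums, and the highest libraries coincided in 3 of the 8 groups. Its levels in grafted libraries ran from 91.0 to 410 CPM, of which Ctss alone held 75.1 CPM or more, and naive libraries held 153 to 361 CPM, so the list is not exclusive to macrophages. Eosinophil, basophil and mast cell genes summed to at most 2.17 CPM in any library, with Prg2 and Epx at 0 in 19 of the 23 grafted ones. B cell genes summed to 1.31 to 9.39 CPM and CD8 T and NK cell genes to 7.0 to 30.4 CPM over all 35 libraries, with rho of 0.144 and −0.101. The T cell list had a rho of −0.21 with the members and varied little, from 7219 to 9405 CPM in grafted libraries. The sums of the other neutrophil lists had rho of 0.328 (specific granule), 0.131 (azurophil) and 0.0158 (mature neutrophil). The specific granule sum includes Pglyrp1, at 37.4 to 228 CPM in grafted libraries, and the mature neutrophil sum includes Mmp9, at 2.545 to 385 CPM. The part of any of these cells in the result was not tested.

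**Figure D5:**
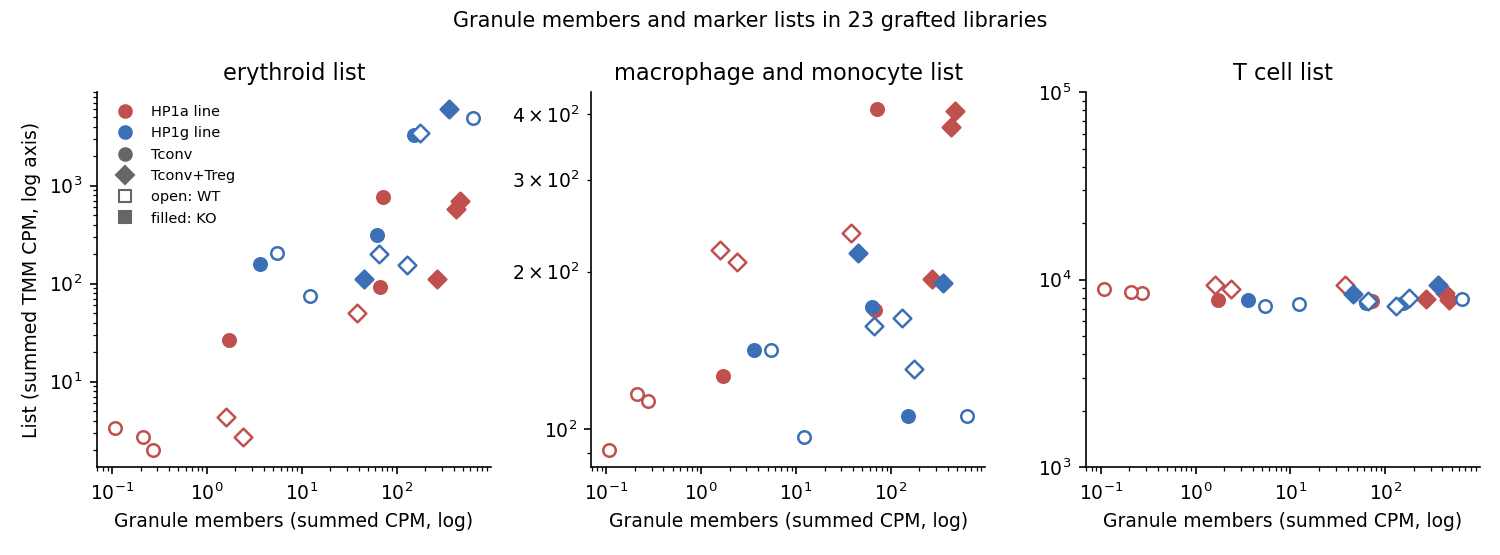
Summed CPM of the erythroid, the macrophage and monocyte, and the T cell lists (vertical log axes) against the summed CPM of the 10 granule members (horizontal log axis) in the 23 grafted libraries, with circles for Tconv, diamonds for TconvTreg, open symbols for WT and filled for KO. The erythroid sum rises with the members (rho 0.839), the macrophage sum does so less (0.329), and the T cell sum stays between 7219 and 9405 CPM.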

How the data were processed

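RNA from sorted or bead-purified CD4+ T cells was made into SMART-Seq v4 libraries and sequenced by the authors, whose pipeline (nf-core/rnaseq with Trim Galore, STAR and Salmon, GRCm39 with Ensembl genes) gave the deposited table of estimated counts for each gene and library. Of its values 82.9% were whole, and all were rounded here. Whether strand was used in counting is not given in the sources used here. Samples were grouped by the line, genotype and condition in their titles. The members and gene lists were chosen with earlier results of these data known. One gene of a marker list is not reported here.

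Each comparison was fitted on its own groups with edgeR 4.0.16 (limma 3.58.1, R 4.3.3): filterByExpr on low counts, TMM factors, robust dispersions, glmQLFit and glmQLFTest, with p-values adjusted over all genes tested. There were 12 comparisons tested, and 3 using the HP1a TconvTreg libraries were described without a test for the members. A call needed an adjusted p under 0.05 and an absolute log2 fold change over 1. Levels are TMM-scaled CPM, and the floor was 3 counts. Likeness used log2 CPM with a prior count of 2. All 10 members are named in every comparison, with at most 3 called genes of each other list and the 10 genes most alike. The method was tested on simulated data in which the changed genes had ample counts and an even spread between libraries. Genes near the floor in a group, or as uneven between libraries as the members, were not covered. Alternatives were DESeq2 1.42.0, its size factors in edgeR (RLE), no filter, all 35 libraries in 1 fit, CPM without TMM, a replicate block, the library set aside, and leaving out each library.

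Same-numbered libraries deviated together (each of 3 correlations over 0.1) in HP1a KO against WT naive cells (0.287 to 0.654) and HP1g KO against WT Tconv (0.112 to 0.431). In the other comparisons with 3 pairs the numbers did not pair the libraries by this measure. Contrasts of HP1g KO TconvTreg had fewer pairs, and each correlation was over 0.1. They were 0.381 and 0.197 against WT TconvTreg, and 0.185 and 0.1001 against KO Tconv. The main fits used no replicate block.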

Additional observations from a re-analysis of the deposited data

How the results depend on the processing

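The number of members called moved with the method wherever calls were made or were near. In HP1a KO against WT Tconv, edgeR called 0, DESeq2 called 2 (S100a8 and S100a9; 0.724% of all genes), and a replicate block 1 (S100a9; 0.193%). In TconvTreg against Tconv of HP1g KO cells, DESeq2 called 1 (Elane; 0.93% of all genes) against 0. In Tconv against naive cells, the HP1a KO count of 2 went to 0 without the filter on low counts. The HP1g WT count of 3 went to 0 with DESeq2, which gave no adjusted p for any member, to 0 without the filter and to 8 with all 35 libraries in 1 fit. The HP1g KO count of 4 went to 9 with DESeq2, 1 without the filter, 7 with all 35 libraries in 1 fit and 0 with the replicate block. The share of all genes called higher in these fits of Tconv against naive cells was 7.38% to 14.7%. For TconvTreg against Tconv in HP1a WT, where Ltf alone had a value of 8.34, the median log2 fold change was 6.03 with DESeq2, 6.15 without the filter and 4.91 with all 35 libraries in 1 fit, where more members had values. The cause of the other moves was not tested. RLE size factors and CPM without TMM moved none of the counts of members called or of the summed levels beyond their limits.

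Leaving out 1 library gave 0 to 7 members called in HP1a KO against WT Tconv (0.0248% to 0.137% of all genes), and in Tconv against naive cells 0 to 7 in HP1a KO, 0 to 7 in HP1g WT and 0 to 9 in HP1g KO. In the fits of Tconv against naive cells, genes called higher were 11.0% to 13.8%, 13.4% to 14.5% and 13.8% to 17.3% of all genes, in the same order. The median log2 fold change ran from 5.35 to 9.39 in HP1a KO against WT TconvTreg and from 6.86 to 8.62 in TconvTreg against Tconv of HP1a WT. With a lone sample in a group, its spread is assumed to equal that of the others.

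Values of single members changed sign in the HP1g line only, and none was called in either sign. With the replicate block, Elane was at 0.60 in HP1g KO against WT Tconv, and in TconvTreg against Tconv of HP1g WT Chil3 was at 1.62, Ltf 1.84, Ngp 2.10, Camp 1.95, Lcn2 2.06, S100a8 1.21 and S100a9 1.75. The comparisons whose replicate numbers pair the libraries had 0 members called, and the block added none. In naive HP1a cells 0 members had passed the filter, so the block could change no call there. With the library set aside put back, Ngp was at −0.001393 and Lcn2 at −0.23 in HP1g KO against WT TconvTreg.

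Leaving out libraries gave these ranges of log2 fold changes. In HP1g KO against WT Tconv, Chil3 ran from −3.55 to 3.39, Ltf −2.865 to 3.21, Ngp −3.04 to 3.53, Camp −3.29 to 3.76, Lcn2 −3.03 to 3.64, S100a8 −2.45 to 2.31, S100a9 −2.87 to 2.84, Mpo −3.42 to 5.44 and Elane −1.05 to 4.44, and the sign turned without replicate 1 of HP1g WT Tconv (for Elane also without replicate 2 of HP1g KO Tconv, at 0.36). In HP1g KO against WT TconvTreg, turning without replicate 1 of the KO group, Chil3 ran from −1.40 to 1.97, Ltf −0.93 to 1.435, Ngp −1.31 to 1.35, Camp −1.17 to 1.83, Lcn2 −1.53 to 1.11, S100a8 −1.68 to 1.64 and S100a9 −1.82 to 1.49. In TconvTreg against Tconv of HP1g WT, turning without replicate 1 of Tconv, Chil3 ran from −1.90 to 4.49, Ltf −1.47 to 4.01, Ngp −1.475 to 4.26, Camp −1.39 to 4.39, Lcn2 −1.46 to 4.42, S100a8 −1.265 to 3.03 and S100a9 −0.9957 to 3.901. In the same contrast of HP1g KO, turning without replicate 1 of TconvTreg, Chil3 ran from −0.30 to 3.345, Ltf −0.13 to 2.68, Ngp −0.59 to 2.72, Camp −0.54 to 3.495, Lcn2 −0.74 to 2.49, S100a8 −0.96 to 2.53 and S100a9 −0.76 to 3.08. In the interaction, where the sign of the later members turned without replicate 1 of HP1g WT Tconv (for S100a8 and S100a9 also without replicate 1 of HP1g KO TconvTreg) and that of Prtn3 without replicate 3 of HP1g KO Tconv, Chil3 ran from −2.30 to 4.64, Ltf −2.53 to 3.54, Ngp −2.99 to 3.59, Camp −2.775 to 4.28, Lcn2 −3.33 to 3.35, S100a8 −1.54 to 3.22, S100a9 −2.22 to 3.49 and Prtn3 −4.18 to 0.058. The floor of 3 counts corresponded to 0.0446 to 0.0816 CPM.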

Other observations

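The library of HP1g KO TconvTreg that was set aside held 36961911 counts over 18623 genes. Of the members it had 2 counts of Camp, 1 of S100a8 and 1 of S100a9, and 0 of the other 7, against 2865 and 20681 counts over the members in the other 2 libraries of its group.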
